A study of Mus musculus with 11 samples.

Results

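The interferon regulatory factors (IRFs) are transcription factors that share a DNA-binding domain and recognise repeats of the letters GAAA. The genes described here are 8 members chosen by name, *Irf1*, *Irf2*, *Irf3*, *Irf4*, *Irf5*, *Irf7*, *Irf8* and *Irf9*, whose symbols were matched to the Ensembl identifiers of the count files. They are 8 of 55487 gene identifiers, and 8 of 8 had at least 10 counts over all hearts, the minimum that left 24177 genes for testing.

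IRF3 and IRF7 are held inactive in the cytosol until the kinases TBK1 and IKKε phosphorylate them below sensors of foreign or misplaced nucleic acid, after which they switch on type I interferon genes. Secreted interferon acts through its receptors, JAK kinases and STAT proteins, of which STAT2 joins IRF9 in the complex ISGF3, and ISGF3 in turn drives interferon-stimulated genes, *Irf7* and *Irf9* among them. IRF1 activates and IRF2 restrains many promoters of the interferon response, whereas IRF4, IRF5 and IRF8 are known mainly from immune cells, and IRF8 serves the macrophages that settle in embryonic organs, the heart included.

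Whole hearts of *Pde2A*+/+ and of *Pde2A*-/- embryos, all taken at E14.5, were profiled by RNA-seq, each heart as its own library, to ask how loss of the phosphodiesterase Pde2A, which degrades cAMP and cGMP, changes the transcriptome of the developing heart. The 5 *Pde2A*-/- hearts are named A, B, 14, D and 15, and the 6 *Pde2A*+/+ hearts 7, 11, 6, 8, H and E. All came from the line B6; 129P2-Pde2A<tm1Dgen> by crosses of heterozygous parents, and the embryos were of both sexes. *Pde2A* is inactivated in every tissue from conception, so that a change in the heart may start elsewhere, and these embryos are known for anemia, a small liver and death before birth.

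The depth was 35865537 to 42835382 sense-strand counts in genes, depending on the heart. Counts could not be used to check the genotype labels, since *Pde2a* (chr7:101421691-101512827, GRCm38) had at most 2 counts in any *Pde2A*-/- heart and at most 2 in any *Pde2A*+/+ heart. The annotated gene *Gm45837* shares its exons on the same strand, and a read lying on both genes is counted for neither. Levels are given as CPM, TMM-normalised counts scaled to the size of the library. Markers of cardiomyocytes, the defining cells of the labelled tissue, summed to between 37311 and 48997 CPM per heart, with the myosin gene *Myh7* the most abundant.

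*Pde2A*+/+ heart 7 stood apart from the other hearts. The 13 markers of T cells and thymus summed to 141.3 CPM in that heart and to at most 3.33 CPM in any other heart. *Rag1*, the recombinase of lymphocytes, was the most abundant of them there with 32.6 CPM, and *Foxn1*, a factor of thymic epithelium, had 10.9 CPM. Of the 13 markers, 7 had 3 counts or fewer in each of the other 10 hearts, while *Cd4*, *Cd8a* and *Dntt* had at most 10 counts in *Pde2A*+/+ heart 7 itself. Results that rest on this heart are therefore given with and without it.

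Of the 8 members, 4 were higher in *Pde2A*-/- hearts at an adjusted p under 0.05 (*Irf1*, *Irf7*, *Irf8* and *Irf9*), against 8.93% of the 24177 genes tested. None was lower in this test, the quasi-likelihood test of edgeR with Benjamini-Hochberg adjustment over all genes tested, and 5.67% of genes were lower. At an unadjusted p under 0.05 the test had 6 members higher and 1 lower, against 15.6% and 14.9% of genes, and DESeq2 called 6 higher and 1 lower, against 11.5% and 9.74% of genes. With a fold change of at least 2 as well, *Irf7* and *Irf9* were called higher, 2 members against 2.21% of genes. In the same 2 members every *Pde2A*-/- heart lay above every *Pde2A*+/+ heart, as in 5.38% of genes, and no member lay below throughout, as in 3.11%. The same shares of all genes are the background for the counts in the gene and marker lists below. The number of members higher ranged from 3 to 6 with single hearts left out, whereas the number past a fold change of 2 was 2 each time.

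**Figure D1:**
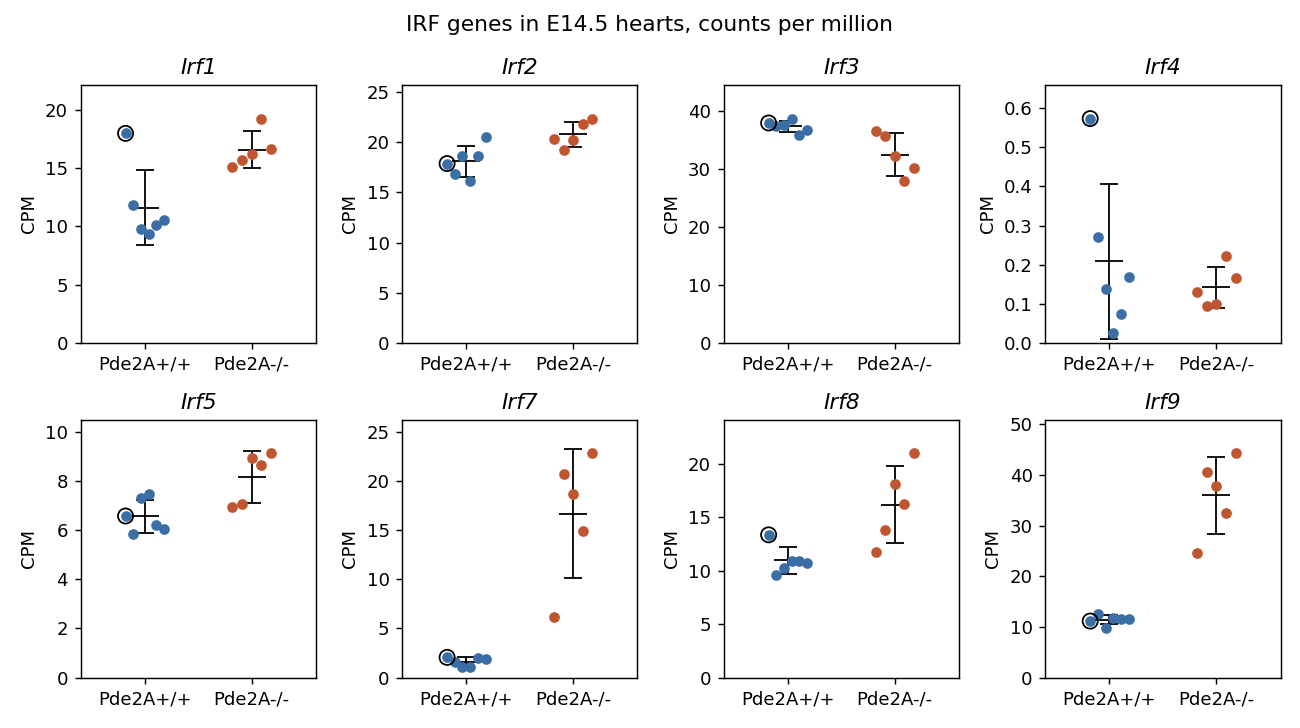
CPM of each of the 8 IRF genes in single hearts, 6 *Pde2A*+/+ (blue) and 5 *Pde2A*-/- (orange), with black bars for the mean and SD of each group and a ring around *Pde2A*+/+ heart 7. For *Irf7* and *Irf9* the groups are apart, with *Pde2A*-/- hearts starting at 6.13 and 24.7 CPM and *Pde2A*+/+ hearts ending at 2.06 and 12.5 CPM.

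*Irf7* is the member that amplifies interferon production once a first wave of interferon has raised its own level. The gene (ENSMUSG00000025498) lies at chr7:141262706-141266481 on the minus strand. It had 6.13 CPM in *Pde2A*-/- heart A, 20.7 in B, 18.6 in 14, 14.9 in D and 22.8 in 15. The *Pde2A*+/+ hearts had between 1.12 and 2.06 CPM with a median of 1.74. The lowest *Pde2A*-/- heart, A, was still well clear of the highest *Pde2A*+/+ heart, and the other 4 *Pde2A*-/- hearts formed a group of their own above A. The fitted log2 fold change was 3.34 (SE 0.30, edgeR adjusted p = 1.45e-05), the largest of the 8 members, with means of 16.6 ± 6.55 CPM (SD, n = 5) in *Pde2A*-/- and 1.64 ± 0.430 CPM (SD, n = 6) in *Pde2A*+/+ hearts. Leaving out single hearts gave log2 fold changes from 3.20 to 3.56.

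*Irf9* encodes the DNA-binding subunit of ISGF3. The gene (ENSMUSG00000002325) lies at chr14:55603571-55610030 on the plus strand. Its levels in *Pde2A*-/- hearts were 24.7 CPM in A, 40.6 in B, 37.9 in 14, 32.6 in D and 44.2 in 15, and in *Pde2A*+/+ hearts they ran from 9.86 to 12.5 CPM with a median of 11.6. The *Pde2A*+/+ hearts were tightly grouped, and the *Pde2A*-/- hearts spread widely above them with A lowest and 15 highest, the same extremes as for *Irf7*. The log2 fold change was 1.66 (SE 0.12, edgeR adjusted p = 5.66e-06), and it was from 1.58 to 1.77 with single hearts left out. *Rnf31*, which encodes a subunit of the linear ubiquitin ligase, ends inside the first 123 bases of the *Irf9* span on the same strand, and its own log2 fold change was 0.52 (SE 0.084, edgeR adjusted p = 0.0018).

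*Irf3* and *Irf7* share a chromosome with *Pde2a*. *Irf7* lies 39.7 Mb from it and *Irf3* lies 56.4 Mb from it. Distances from *Pde2a* were taken for the members alone. Whether sequence carried along with the targeted allele plays a part in these or in other named genes was not tested.

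*Stat2*, for another component of ISGF3, rose with *Irf9*. It had 24.9 CPM in *Pde2A*-/- heart A and at most 33.2 CPM in the other *Pde2A*-/- hearts, against 17.2 to 19.9 CPM in *Pde2A*+/+ hearts. The groups did not overlap and A was again the *Pde2A*-/- heart nearest to *Pde2A*+/+ hearts. The log2 fold change was 0.64 (SE 0.077). Levels between genes can be set side by side only per length: in *Pde2A*-/- hearts *Irf9* had 6.68 ± 1.42 CPM per kilobase of annotated exon and *Stat2* had 4.99 ± 0.611 (SD, n = 5). In *Pde2A*+/+ hearts the same levels were 2.12 ± 0.162 for *Irf9* and 3.19 ± 0.165 for *Stat2* (SD, n = 6). By these lengths *Stat2* was the more abundant of the 2 in *Pde2A*+/+ hearts and *Irf9* in *Pde2A*-/- hearts. In the latter the difference was less than their summed SDs. The lengths, 5386 bases for *Irf9* and 5926 for *Stat2*, join the exons of all annotated transcripts, retained introns included. With the lengths of the main transcripts the order may differ, which was not tested.

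Among the receptor kinases, *Jak2* rose by 0.21 (SE 0.050), and the values of *Jak1* and *Tyk2* were 0.11 (SE 0.044) and 0.029 (SE 0.045), all as log2 fold changes. Of the 6 interferon receptor genes, *Ifnar2* rose by 0.33 (SE 0.079) and *Ifngr1* by 0.26 (SE 0.061). The log2 fold changes of *Ifnar1* (0.12), *Il10rb* (0.19), *Ifnlr1* (0.21) and *Ifngr2* (−0.064) did not pass the adjusted threshold. The median over the 6 receptor genes was 0.20, against −0.023 over all genes tested.

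Interferon transcripts themselves were close to absent at this depth. Of 21 ligand genes, 18 had no count in any heart and 20 had fewer than 10 counts over the 11 hearts. All 21 together had 10 counts in *Pde2A*-/- and 3 counts in *Pde2A*+/+ hearts, and no ligand gene had more than 4 counts in a heart. *Ifnz* alone was tested, and it did not pass the threshold (edgeR adjusted p = 0.40). No difference in ligand transcripts was detectable at this depth, and near-identical *Ifna* genes are counted low because a read that fits several of them is given to none.

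The genes that ISGF3 and IRF7 are known to drive moved together. They were listed with earlier results of these data known, so that their counts are no independent test. Of 30 such genes, 29 were higher and 0 lower by edgeR, against 8.93% and 5.67% of all genes tested. Their median log2 fold change was 2.26. At an unadjusted p under 0.05, and also by DESeq2, 30 were higher and 0 lower, against 15.6% and 11.5% of genes higher. In 28 of the 30 every *Pde2A*-/- heart lay above every *Pde2A*+/+ heart, as in 5.38% of all genes. The largest rises were those of *Isg15*, a ubiquitin-like modifier (4.52, SE 0.36), *Ifit1*, which binds foreign RNA (4.30, SE 0.31), and *Ifi44* (4.16, SE 0.36). *Ifit2* was the gene that missed the threshold (0.32, SE 0.10, edgeR adjusted p = 0.051). Summed over the 30 genes, *Pde2A*-/- heart A had 326.2 CPM, B 562.6, 14 539.1, D 465.9 and 15 628.1, against 166.8 to 198.6 CPM in *Pde2A*+/+ hearts with a median of 181.5. *Pde2A*-/- heart A was the lowest of the *Pde2A*-/- hearts in 28 of the 30 genes, and heart 15 was the highest in 20 of them, as for *Irf7* and *Irf9*.

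**Figure D2:**
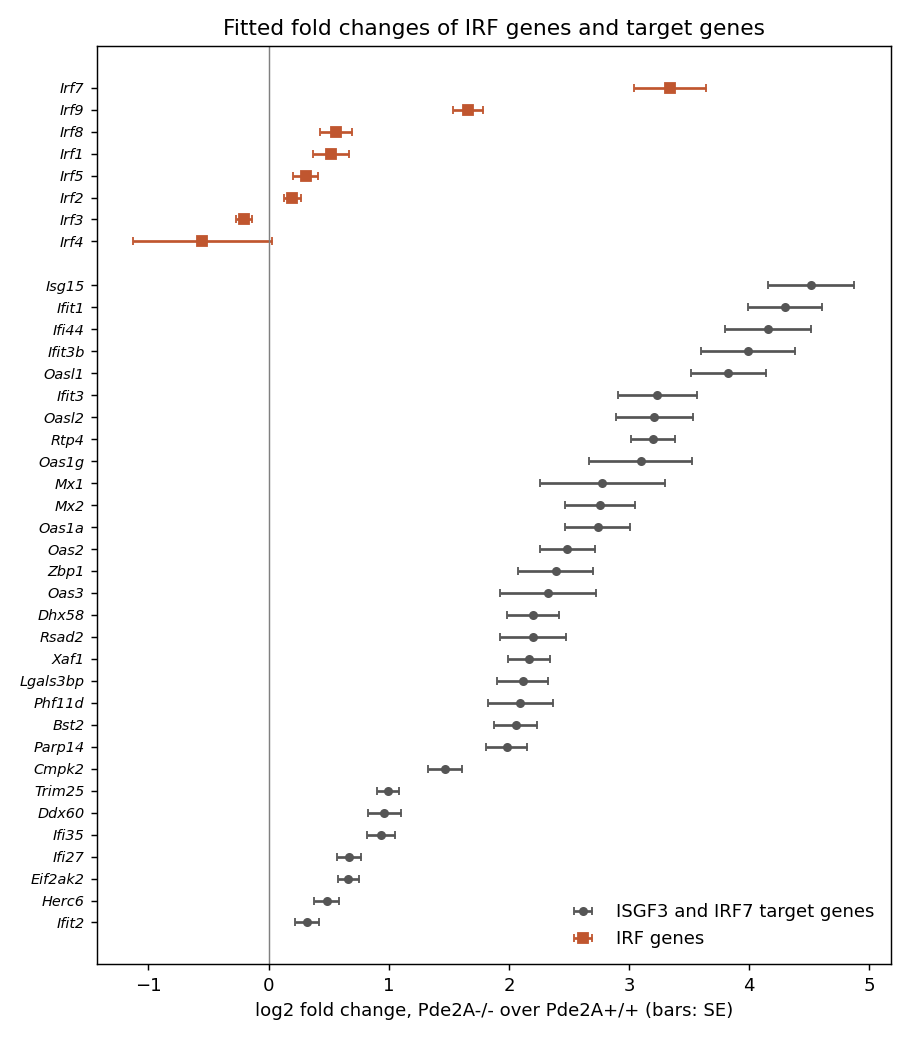
Fitted log2 fold changes, *Pde2A*-/- over *Pde2A*+/+ hearts, of the 8 IRF genes (orange squares) and of 30 ISGF3 and IRF7 target genes (grey circles), with bars for the SE. *Irf7* at 3.34 lies among the target genes, and *Irf9* at 1.66 lies below their median of 2.26.

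*Irf3* encodes the factor that is present before infection and responds first. The gene (ENSMUSG00000003184) lies at chr7:44997648-45002848 on the plus strand. In *Pde2A*-/- hearts it had 36.6 CPM in A, 35.8 in B, 32.2 in 14, 27.9 in D and 30.2 in 15, and in *Pde2A*+/+ hearts between 35.9 and 38.7 CPM with a median of 37.5. *Pde2A*-/- heart A was inside the *Pde2A*+/+ range, B just under it, and 14, D and 15 were lower. The log2 fold change of −0.20 (SE 0.067) missed the threshold (edgeR adjusted p = 0.059). It passed without *Pde2A*-/- heart A (−0.24, edgeR adjusted p = 0.019) or B (−0.24, edgeR adjusted p = 0.030), and also with DESeq2, with the filter filterByExpr and with *Xist* as a covariate, the adjusted p ranging from 0.019 to 0.13 over all alternatives.

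Upstream of the IRF proteins, 12 of 22 genes for sensors, adaptors and kinases were higher and 1 was lower by edgeR. The shares of all genes were 8.93% and 5.67%, and the median log2 fold change of the list was 0.28. The largest rises were in the cytosolic RNA sensors *Ifih1* (1.93, SE 0.20), which encodes MDA5, and *Ddx58* (1.29, SE 0.11), which encodes RIG-I, and in the adaptor *Ticam2* (1.06, SE 0.25). The kinase gene *Tbk1* rose by 0.13 (SE 0.037), and *Ikbke*, for IKKε, had 0.15 (SE 0.097) without passing. *Chuk* was the gene that fell, by 0.18 on the log2 scale (SE 0.054). Neither *Tbk1* (edgeR adjusted p = 0.069) nor *Chuk* (edgeR adjusted p = 0.086) passed without *Pde2A*+/+ heart 7.

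*Irf1* is induced by interferon-γ and drives antigen presentation genes. The gene (ENSMUSG00000018899) lies at chr11:53770014-53778374 on the plus strand. The *Pde2A*-/- hearts had 15.1 CPM in A, 15.7 in B, 16.2 in 14, 19.3 in D and 16.7 in 15. The *Pde2A*+/+ hearts ran from 9.35 to 17.99 CPM with a median of 10.3. The highest *Pde2A*+/+ value was that of heart 7, and the next was 11.8 CPM, so that the groups overlapped through this heart alone. The log2 fold change was 0.52 (SE 0.15, edgeR adjusted p = 0.037), and without *Pde2A*+/+ heart 7 it was 0.68 (edgeR adjusted p = 3.71e-04). The call was lost without *Pde2A*-/- heart 14, D or 15 or *Pde2A*+/+ heart 11, 6, 8, H or E, each time with *Pde2A*+/+ heart 7 still in the fit, and the edgeR adjusted p then reached 0.10.

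Of 28 genes that IRF1 and interferon-γ are known to induce, 15 were higher and 1 was lower by edgeR. The shares of all genes were 8.93% and 5.67%, and the median log2 fold change of the list was 0.79. Without *Pde2A*+/+ heart 7 the number higher was 20 and the median 1.28. The largest rises were those of the guanylate-binding protein genes *Gbp3* (2.85, SE 0.25) and *Gbp6* (2.29, SE 0.33) and of the immunity-related GTPase *Irgm1* (1.83, SE 0.18). *Nos2*, the inducible nitric oxide synthase, fell by 0.95 (SE 0.23). The immunoproteasome gene *Psmb8* had a log2 fold change of 0.41 with *Pde2A*+/+ heart 7 and 1.49 without it, and *Psmb9* had 0.34 and 1.64.

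*Irf2* encodes a factor that competes with IRF1 for the same DNA sites. The gene (ENSMUSG00000031627) lies at chr8:46739732-46847458 on the plus strand. Its levels in *Pde2A*-/- hearts were 20.3 CPM in A, 19.2 in B, 20.2 in 14, 21.8 in D and 22.3 in 15, against 16.2 to 20.6 CPM and a median of 18.2 in *Pde2A*+/+ hearts. Only *Pde2A*-/- hearts D and 15 lay above every *Pde2A*+/+ heart. Its log2 fold change of 0.20 (SE 0.068) did not pass (edgeR adjusted p = 0.070). It passed without *Pde2A*-/- heart B (0.22, edgeR adjusted p = 0.047) or *Pde2A*+/+ heart E (0.24, edgeR adjusted p = 0.038), and also with DESeq2 and with *Xist* as a covariate, the adjusted p ranging from 0.033 to 0.15 over all alternatives.

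Of 16 genes for partners and modifiers of IRF proteins, 5 were higher and 1 was lower by edgeR, and the median log2 fold change was 0.0035. The shares of all genes were 8.93% and 5.67%, so that the 1 gene lower is near the share of all genes. *Usp18*, which removes ISG15 from proteins and damps the type I interferon receptor, rose most (4.20, SE 0.35). It was followed by *Trim21*, a ubiquitin ligase that acts on IRF proteins (0.84, SE 0.15), and by *Spi1*, for the partner PU.1 of IRF4 and IRF8 (0.80, SE 0.13).

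*Irf8* guides the formation of macrophages, monocytes and dendritic cells. The gene (ENSMUSG00000041515) lies at chr8:120736358-120756694 on the plus strand. In *Pde2A*-/- hearts it had 11.8 CPM in A, 13.8 in B, 18.1 in 14, 16.2 in D and 21.0 in 15, and in *Pde2A*+/+ hearts between 9.59 and 13.4 CPM with a median of 10.8. *Pde2A*+/+ heart 7 was the highest *Pde2A*+/+ heart, and *Pde2A*-/- heart A lay below it, while the other 4 *Pde2A*-/- hearts lay above every *Pde2A*+/+ heart. The log2 fold change was 0.56 (SE 0.13, edgeR adjusted p = 0.016), from 0.45 to 0.66 with single hearts left out, and it passed the threshold each time.

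*Irf5* acts below Toll-like receptors in macrophages. The gene (ENSMUSG00000029771) lies at chr6:29526625-29541871 on the plus strand. The *Pde2A*-/- hearts had 6.94 CPM in A, 7.06 in B, 8.93 in 14, 8.66 in D and 9.12 in 15, and the *Pde2A*+/+ hearts 5.84 to 7.45 CPM with a median of 6.39. *Pde2A*-/- hearts A and B lay inside the *Pde2A*+/+ range and the other 3 above it. Its log2 fold change of 0.31 (SE 0.10) missed the threshold (edgeR adjusted p = 0.061). It passed without *Pde2A*-/- heart A (0.37, edgeR adjusted p = 0.027) or B (0.36, edgeR adjusted p = 0.036), and also with DESeq2, with filterByExpr, with reads of both strands and with the naming style of the hearts (letter or number) as a covariate, the adjusted p ranging from 0.021 to 0.15 over all alternatives. *Tnpo3* overlaps the end of *Irf5* by 1045 bases on the opposite strand, and within the *Irf5* exons the opposite strand had between 601 and 798 counts per heart, more than the 215 to 359 counts of *Irf5* itself.

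*Irf4*, a factor of lymphocytes and of some dendritic cells, was close to the limit of detection. The gene (ENSMUSG00000021356) lies at chr13:30749226-30766976 on the plus strand. It had 4 to 8 counts in each *Pde2A*-/- heart and 1 to 10 counts in *Pde2A*+/+ hearts other than heart 7, which had 22. The *Pde2A*-/- hearts lay within the *Pde2A*+/+ range. Fitted over all hearts the log2 fold change was −0.55 (SE 0.58, edgeR adjusted p = 0.57), against 0.061 without *Pde2A*+/+ heart 7, and no difference was detectable at this depth.

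Of 17 target and lineage genes of IRF8 and IRF4, 14 were tested and 7 were higher and 0 lower by edgeR, at an unadjusted p under 0.05 and by DESeq2 alike. Of all genes, 8.93% were higher by edgeR, 15.6% at an unadjusted p under 0.05 and 11.5% by DESeq2. The median log2 fold change of the list was 0.39. The number higher was 5 without *Pde2A*+/+ heart 7. *Acp5* (1.72, SE 0.19), the NADPH oxidase subunit *Cybb* (1.22, SE 0.16) and *Clec9a* (1.17, SE 0.31), a receptor of dendritic cells, rose most, and *Clec9a* missed the threshold without that heart.

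Of 20 markers of macrophages, 16 were higher by edgeR and 15 without *Pde2A*+/+ heart 7, none was at 0, and *Csf1r*, the receptor that macrophages need to survive, was the most abundant with means of 66.5 CPM in *Pde2A*-/- and 42.5 CPM in *Pde2A*+/+ hearts. Their sum was 348.0 CPM in *Pde2A*-/- heart A, 406.2 in B, 464.6 in 14, 438.5 in D and 461.6 in 15, against 185.3 to 293.0 CPM with a median of 245.9 in *Pde2A*+/+ hearts. The groups did not overlap, and A was the lowest *Pde2A*-/- heart. In bulk samples, more cells of a type and more RNA per cell cannot be told apart.

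Set against the mean log2 CPM of these 20 markers, the level of *Irf5* was lower in *Pde2A*-/- hearts, a call that was lost with the median of the markers in place of the mean (adjusted p = 0.078). The log2 ratio of *Irf5* to the markers differed, *Pde2A*-/- minus *Pde2A*+/+, by −0.58 (exact permutation test, two-sided, p = 0.0065, Benjamini-Hochberg adjusted over the 2 genes p = 0.013), and all 5 *Pde2A*-/- hearts lay below every *Pde2A*+/+ heart. The same difference was −0.35 for *Irf8* (exact permutation test, two-sided, p = 0.097, adjusted p = 0.097), with 3 of 5 *Pde2A*-/- hearts below every *Pde2A*+/+ heart. The smallest p that 5 hearts against 6 allow is 0.0022.

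Other blood cell markers also moved with genotype. Of 12 listed erythroid markers 11 had an identifier and 10 of these were higher by edgeR, led by *Hemgn* (4.94, SE 0.38), and their sum was 690.6 CPM in *Pde2A*-/- heart A, 1324 in B, 1106 in 14, 1035 in D and 1137 in 15, against 214.1 to 635.1 CPM in *Pde2A*+/+ hearts with a median of 377.0. *Slc4a1*, the anion exchanger of red cells, was the most abundant in *Pde2A*-/- hearts. In *Pde2A*+/+ hearts it was *Alas2*, the marker that was not called (−0.60, edgeR adjusted p = 0.22). No marker was at 0. Of 9 tested markers of granulocytes and monocytes, 5 were higher, led by *Elane* (3.18, SE 0.54), and *Ccr2* was lower (−1.51, SE 0.27), with sums of 26.9 CPM in *Pde2A*-/- heart A, 20.4 in B, 20.4 in 14, 51.6 in D and 34.4 in 15, against 3.32 to 13.7 CPM in *Pde2A*+/+ hearts with a median of 9.41. *S100a9* was the most abundant of them in *Pde2A*-/- hearts and *Ccr2* in *Pde2A*+/+ hearts. The part of these cells in the rise of *Irf7*, *Irf8* and *Irf9* was not tested.

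Markers of dendritic cells summed to 19.6 to 24.1 CPM in *Pde2A*-/- and 20.4 to 23.5 CPM in *Pde2A*+/+ hearts. Most of the sum came from *Zbtb46*, with means of 20.1 and 21.3 CPM, so that the sum mainly follows this gene. *Xcr1* and *Cd209a* were under the minimum of 10 counts. Whether the *Zbtb46* reads came from dendritic cells was not tested. Of 6 tested dendritic cell markers *Clec9a* was higher and *Siglech* lower, the latter with at most 10 counts in any heart. Neither passed without *Pde2A*+/+ heart 7, and DESeq2 called *Clec9a* but gave *Siglech* no adjusted p. Of 4 tested B cell markers 0 were called in either direction by edgeR, at an unadjusted p under 0.05 or by DESeq2, which gave an adjusted p for 1 of the 4, and B cell markers summed to at most 1.36 CPM per heart. Of 13 tested T cell and thymus markers 0 were called in either direction by edgeR or by DESeq2, which gave an adjusted p for none of them, 9 were lower at an unadjusted p under 0.05, and without *Pde2A*+/+ heart 7 only 7 of them had enough counts to be tested and 1 was higher. The median log2 fold change of this list was −6.38, and −0.26 without that heart. Natural killer cell markers summed to 48.3 CPM in *Pde2A*+/+ heart 7, nearly all from *Gzma*, and to at most 0.576 CPM in any other heart. By edgeR *Klrb1c* and *Prf1* were lower, with at most 4 and 3 counts in *Pde2A*-/- hearts and 11 and 8 counts in *Pde2A*+/+ hearts, whereas *Gzma*, *Klrd1* and *Eomes* did not pass and *Ncr1* was under the minimum. *Klrb1c* did not pass without *Pde2A*+/+ heart 7 (edgeR adjusted p = 0.086), and DESeq2 gave none of these markers an adjusted p.

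Among cells of the heart itself, 3 of 10 endothelial markers were higher, *Emcn* (0.50, SE 0.087), *Pecam1* (0.34, SE 0.066) and *Egfl7* (0.22, SE 0.070). Of 12 cardiomyocyte markers *Nppa* was higher (0.87, SE 0.19) and 3 were lower, *Ttn* (−0.51, SE 0.11), *Myl4* (−0.45, SE 0.087) and *Tnni1* (−0.41, SE 0.092). Of 10 markers of fibroblasts and epicardium 3 were higher, *Postn* (0.42, SE 0.079), *Tcf21* (0.30, SE 0.072) and *Pdgfra* (0.27, SE 0.064), and *Tbx18* was lower (−0.31, SE 0.095). *Egfl7* and *Tbx18* did not pass without *Pde2A*+/+ heart 7 (edgeR adjusted p = 0.088 and 0.052). By DESeq2, 5 endothelial markers were higher and 0 lower, 1 cardiomyocyte marker was higher and 6 lower, and 3 markers of fibroblasts and epicardium were higher and 1 lower. At an unadjusted p under 0.05 the edgeR counts were 6 and 0, 1 and 6, and 4 and 1. Of all genes tested, 8.93% were higher and 5.67% lower by edgeR, and 11.5% and 9.74% by DESeq2. At an unadjusted p under 0.05 the shares were 15.6% and 14.9%. The 1 cardiomyocyte marker called higher is near the share of all genes. The changes called by edgeR were smaller than those of *Irf7* and *Irf9*.

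Per kilobase of annotated exon, *Irf3* was the most abundant member in *Pde2A*+/+ hearts with 10.9 ± 0.279 CPM per kilobase, followed by *Irf1* (2.92 ± 0.815), *Irf2* (2.45 ± 0.210), *Irf5* (2.26 ± 0.230), *Irf9* (2.12 ± 0.162), *Irf8* (1.55 ± 0.181), *Irf7* (0.433 ± 0.114) and *Irf4* (0.0425 ± 0.0403; SD, n = 6). The neighbours from *Irf1* to *Irf9* in this order did not differ beyond their spread. In *Pde2A*-/- hearts *Irf3* was still first with 9.45 ± 1.07 CPM per kilobase, *Irf9* was second with 6.68 ± 1.42 and *Irf7* came next with 4.41 ± 1.74 (SD, n = 5), the last within the spread of *Irf1* at 4.17 ± 0.401. Exon lengths are those of all annotated transcripts joined, retained introns included, so that they overstate the length of the main transcript of some genes.

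*Irf3* made up 48.1% of the summed IRF level per kilobase in *Pde2A*+/+ hearts and 29.3% in *Pde2A*-/- hearts. The share of *Irf7* was 1.91% in *Pde2A*+/+ and 13.1% in *Pde2A*-/- hearts, and that of *Irf9* 9.37% and 20.3%. The sum over the 8 members was 22.6 ± 1.11 in *Pde2A*+/+ and 32.6 ± 3.43 CPM per kilobase in *Pde2A*-/- hearts.

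**Figure D3:**
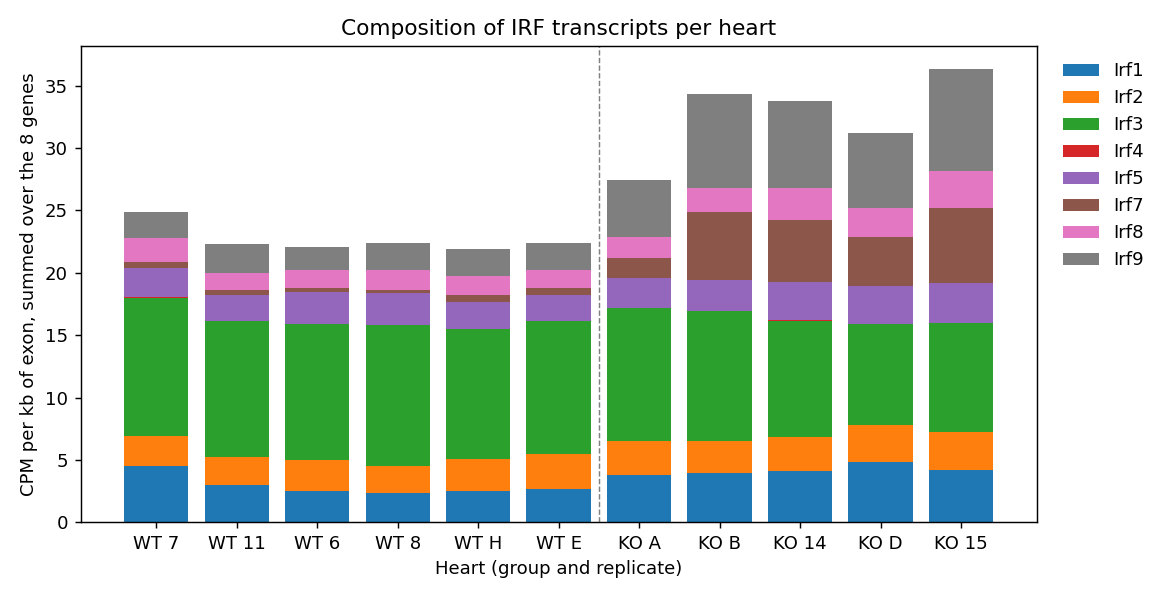
Level of the 8 IRF genes in each heart, in CPM per kilobase of annotated exon, stacked, with *Pde2A*+/+ hearts left and *Pde2A*-/- hearts right of the dashed line. The sum ran from 21.9 to 24.9 in *Pde2A*+/+ and from 27.5 to 36.4 in *Pde2A*-/- hearts, and the parts of *Irf7* and *Irf9* widen most.

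Within genotypes, the genes whose log2 CPM followed a member most closely over the 11 hearts were sought among the 14024 genes that averaged 1 CPM or more, which leaves out *Irf4*, and described by Pearson's r after the mean of each genotype had been taken off, with Spearman's rho beside it and no test; the values share the same libraries. *Irf9* was followed by the interferon-stimulated genes *Pml* (r = 0.96, rho = 0.94), *Rtp4* (r = 0.95, rho = 0.88) and *Bst2* (r = 0.94, rho = 0.92). *Irf7* was followed by *Trim34a* (r = 0.94, rho = 0.76), *Irgm2* (r = 0.94, rho = 0.78) and *Angptl6* (r = 0.94, rho = 0.91). *Irf7* and *Irf9* followed each other with r = 0.86 over all hearts and 0.89 without *Pde2A*+/+ heart 7, a choice made after the data had been seen.

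The other members had other companions. *Irf1* was closest to *Pax1* (r = 0.95, rho = 0.85), a gene of the thymic primordium and other tissues, and r was 0.89 without *Pde2A*+/+ heart 7, after which *Cnmd* came first (r = 0.93). *Was* and *Fcho1* came next to *Irf1* over all hearts with r = 0.95 each, and with 0.80 and 0.74 without *Pde2A*+/+ heart 7. For these and the genes that follow over all 11 hearts, rho was between 0.85 and 0.97. *Irf8* was closest to *Nop53* (r = 0.96), *Tnfrsf9* (r = 0.94) and *Ccdc77* (r = 0.94), *Irf5* to *Mnat1* (r = 0.97), *Sgta* (r = 0.94) and *Hsp90ab1* (r = 0.93), *Irf2* to *Atg2a* (r = 0.92), *Clec1a* (r = 0.91) and *C9orf72* (r = 0.90), and *Irf3* to *Upf3a* (r = 0.98), *Thtpa* (r = 0.98) and *2310011J03Rik* (r = 0.97). Without *Pde2A*+/+ heart 7 the 3 closest genes were all different for *Irf7* (*Ifi44*, r = 0.97, *Sptb*, r = 0.97, and *Gbp7*, r = 0.96) and for *Irf8* (*Pias4*, r = 0.98, *Egln1*, r = 0.98, and *Stab2*, r = 0.97), as for *Irf1*. In the fits without that heart, rho was 0.84 for *Cnmd* and ran from 0.81 (*Ifi44*) to 0.96 (*Pias4*) for the companions of *Irf7* and *Irf8*. The closest 3 kept 2 of their genes for *Irf3*, *Irf5* and *Irf9* and 1 for *Irf2*. Among pairs of members, *Irf8* had r = 0.69 with *Irf7*, 0.68 with *Irf5*, 0.59 with *Irf9* and −0.59 with *Irf3*.

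The promoters of the 4 members called higher are shown. RefSeq promoter windows (GRCm38.p6) of 250 bases before to 50 bases after a start were found for 8 of 8 members, 11 windows in all, and were searched on both strands for AANNGAAA, an IRF core, for GAAANNGAAA, which contains a core repeat and can overlap the first motif, and for TTCNNNGAA, the letters of STAT dimers. Of 32851 windows of all genes, 23.9% held the first motif, 3.44% the second and 8.30% the third. Capitals mark a match, and only bases outside annotated exons are printed, 5′ to 3′ on the strand of the gene. Of the 2 windows of *Irf9* the first lies wholly in exons, so the stretch printed is from the second and lies inside the gene.
Irf1, chr11:53769764-53770013, plus strand: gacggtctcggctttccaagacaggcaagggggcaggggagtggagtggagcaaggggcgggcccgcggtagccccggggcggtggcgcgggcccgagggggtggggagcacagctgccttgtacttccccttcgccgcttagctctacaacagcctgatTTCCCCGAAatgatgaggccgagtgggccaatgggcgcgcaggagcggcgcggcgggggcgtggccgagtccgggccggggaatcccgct
Irf7, chr7:141266482-141266674, minus strand: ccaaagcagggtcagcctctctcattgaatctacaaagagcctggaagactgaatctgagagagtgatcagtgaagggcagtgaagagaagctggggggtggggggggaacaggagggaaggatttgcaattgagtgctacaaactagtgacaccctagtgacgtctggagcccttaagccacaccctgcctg
Irf8, chr8:120736108-120736357, plus strand: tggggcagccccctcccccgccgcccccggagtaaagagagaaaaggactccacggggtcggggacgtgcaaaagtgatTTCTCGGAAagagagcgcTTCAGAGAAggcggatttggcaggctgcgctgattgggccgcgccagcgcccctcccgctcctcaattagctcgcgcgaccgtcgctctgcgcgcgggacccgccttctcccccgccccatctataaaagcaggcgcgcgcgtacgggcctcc
Irf9, chr14:55604329-55604467, plus strand: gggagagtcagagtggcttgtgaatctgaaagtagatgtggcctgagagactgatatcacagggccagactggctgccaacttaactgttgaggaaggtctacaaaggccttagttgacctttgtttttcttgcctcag

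*Irf1* held 1 match to the STAT letters, TTCCCCGAA, starting 90 bases before its start. *Irf8* held 2, TTCTCGGAA and TTCAGAGAA, starting 171 and 153 bases before its start. The windows of *Irf7* and *Irf9* held none of the 3 motifs, which says only that these letters are not in these windows. Among the members that were not called, *Irf2* held 2 matches to the IRF core, AAGTGAAA and AAATGAAA, the GAAA repeat as GAAAATGAAA, and 1 match to the STAT letters, TTCCGAGAA, and the windows of *Irf3*, *Irf4* and *Irf5* held no match.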

How the data were processed

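The authors sequenced stranded poly(A) libraries as single-end reads on an Illumina NextSeq instrument and, per the submitters' notes, mapped them with STAR to GRCm38 (mm10). They deposited whole-number counts per gene for each heart, without normalization, as unstranded, antisense and sense reads. The sense counts were used, and between 19.6% and 22.4% of reads per heart were not counted. These reads were unmapped, fitted several places in the genome, or lay on no gene or on several genes. Groups came from the deposited labels.

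A minimum of 10 counts summed over the hearts was set, and genes were tested with edgeR 4.0.16 in R 4.3.3 (TMM, quasi-likelihood test, Benjamini-Hochberg adjustment over all 24177 genes), checked on simulated counts. CPM are TMM-normalised, and log2 CPM use a prior count of 2. Single ratios were compared by exact permutation over hearts. Gene positions and exons came from GENCODE M21, which matched 55227 of 55487 identifiers. Alternatives were DESeq2 1.42.0, its size factors, other filters, both strands, covariates and leaving out each heart; results without *Pde2A*+/+ heart 7 for lists and likeness were added after the data had been seen. Labels named no batch or litter.

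Named genes are the members, *Pde2a*, the 3 largest called changes of each list, all genes of lists of 6 or fewer, genes overlapping a member and the 3 genes most like it; *Ifit2*, *Tbk1*, *Ikbke*, *Chuk*, *Nos2*, *Psmb8*, *Psmb9*, *Alas2*, *Ccr2*, *Tnni1*, *Pdgfra* and the companion *Cnmd* were named after their values had been seen. The members and lists were chosen with earlier results of these data known, and the lists were written from general knowledge. Protein sequences were not analysed here.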

Additional observations from a re-analysis of the deposited data

Results flagged for a closer look

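Among 38 groups of hearts examined, 4 held a heart far from the others of its genotype, and chance alone marks about 1 in 20 groups. All 4 were *Pde2A*+/+ heart 7. It had 17.99 CPM of *Irf1* against 11.8 CPM in the nearest *Pde2A*+/+ heart, and 13.4 CPM of *Irf8* against 10.9 CPM. Its markers of T cells and thymus summed to 141.3 CPM against 2.80 CPM, and its markers of natural killer cells to 48.3 CPM against 0.576 CPM. The part of these cells in the levels of *Irf1* and *Irf8* was not tested.

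Reads on the strand opposite to *Irf9* were outside the main measurement. They numbered at least 8 in each *Pde2A*-/- heart and at most 5 in any *Pde2A*+/+ heart, against 945 or more sense counts in *Pde2A*-/- hearts.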

How the results depend on the processing

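*Irf7*, *Irf8* and *Irf9* kept their direction and stayed past the adjusted p under all 19 alternative fits, with log2 fold changes from 3.20 to 3.56, from 0.45 to 0.66 and from 1.58 to 1.77. *Irf1* passed in 11 of the 19, *Irf5* in 6, *Irf3* in 5 and *Irf2* in 4, each in 1 direction. *Irf4* ranged from −0.78 to 0.061 with single hearts left out, turning direction without *Pde2A*+/+ heart 7, and was not in the table under filterByExpr. The number of members lower was 1 with DESeq2, with filterByExpr and with *Xist* as a covariate, and from 0 to 1 with single hearts left out; the cause was not tested. Genes higher numbered 2160, and from 1288 to 2887 with single hearts left out. Genes lower numbered 1372, 2354 with DESeq2, and from 414 to 2165 with single hearts left out. Members past a fold of 2 numbered 2 under every alternative, a fold of 1.5 included. The ratio of *Irf5* to macrophage markers ranged from −0.66 to −0.47 and that of *Irf8* from −0.43 to −0.25 with single hearts left out, on the same side of the threshold each time. With the median of the markers in place of their mean, *Irf5* no longer passed (−0.48, adjusted p = 0.078), nor did *Irf8* (−0.24, adjusted p = 0.24). No paired analysis was possible because the genotypes share no replicate names.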
